A study of Mus musculus with 2 samples.

Results

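Lipid droplets are stores of triglyceride and cholesteryl ester inside a phospholipid monolayer, and the 10 genes described here coat them, fill them or empty them. The genes were taken by symbol as a list of droplet coat proteins (*Plin2*, *Plin3*), enzymes of triglyceride synthesis (*Acsl1*, *Dgat1*, *Dgat2*), lipases with their activator (*Pnpla2*, *Abhd5*, *Mgll*) and inhibitors of lipolysis (*Hilpda*, *G0s2*), out of 31053 genes in the files. All 10 had UMIs (unique molecular identifiers, 1 per captured mRNA molecule) in both libraries, and all 10 had at least 30 UMIs over both, as did 10662 genes in all.

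Fatty acids that enter a macrophage are activated to acyl-CoA by enzymes such as ACSL1, esterified to triglyceride with DGAT1 or DGAT2 at the last step, and packed into droplets under a coat of perilipins. PLIN2, the perilipin of most cells other than adipocytes, is stable only on a droplet, and its gene responds to fatty acids through PPARs. Stored triglyceride is released by adipose triglyceride lipase (*Pnpla2*), which ABHD5 activates and which the small proteins HILPDA and G0S2 inhibit, and monoacylglycerol lipase (*Mgll*) takes the last step. Macrophages of adipose tissue (ATMs) handle lipid from adipocytes and from lipoproteins, so the diet comparison asks how this machinery differs after a single night of fat feeding.

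The cells were sorted as CD45+Lin-Ly6Clow/-F4/80+ macrophages from the epididymal adipose tissue of male C57/BL6 mice of 8 to 12 weeks. The Lin gate was set to leave out T cells, B cells, eosinophils and neutrophils, and the Ly6C gate to leave out cells rich in Ly6C, as classical monocytes are. CD mice stayed on control diet, and HFD mice were fed a high fat diet overnight, until the next morning. The cells of 3 mice per diet were pooled into 1 library, so each diet had 1 library, no replicate, and no test or p-value is given. Intervals are given at 95% and are exact except for a difference between log2 ratios, which has an interval from counting variances. They cover counting error only, not the spread between mice or between cells. Diet therefore cannot be told apart from anything else that differed between the 2 libraries.

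Sequencing gave 4459 CD barcodes with 15003119 UMIs together, and 3163 HFD barcodes with 9164686. Cells with 200 to 3500 genes and at most 10% of UMIs from mitochondrial genes were kept, which left 2364 cells in CD, at a median depth of 4490.5 UMIs, and 2021 in HFD, at a median depth of 2792. Kept cells with fewer than 1000 genes made up 14.4% of the CD and 40.8% of the HFD cells. The macrophage genes *Adgre1*, *Itgam*, *Csf1r*, *Ptprc* and *Cd68* had UMIs in both libraries and summed to 1940 and 1584 CPM, the UMIs of a gene scaled to a common total of UMIs of the same cells. Summed markers of other cell types were lower in the HFD library: 8 of 8 adipocyte genes were seen in each library at 118.9 and 74.4 CPM, 4 of 4 and 3 of 4 stromal genes at 71.1 and 4.20 CPM, 5 of 6 and 3 of 6 neutrophil genes at 15.9 and 8.04 CPM, and 4 of 4 endothelial genes at 12.5 and 9.65 CPM. Dissociation and heat shock genes summed to 11933 CPM in CD and 11463 CPM in HFD, and the nuclear RNAs *Malat1* and *Neat1* to 25037 and 33515 CPM. The genes of the first sum did not go the same way. *Hspa1a* was at 361 and 591 CPM, log2 0.71, and *Hspa1b* at 45.8 and 128 CPM, log2 1.48, both higher in HFD. *Junb* was at log2 0.09, while *Fos*, *Jun*, *Egr1*, *Atf3* and *Dnajb1* were lower in HFD, at log2 -0.11, -0.15, -0.32, -0.25 and -0.18. A total of 14 barcodes occurred in both libraries, 10 of them among the kept cells of each.

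The promoter windows of *Plin2* and *Hilpda*, the members with the highest ratios of HFD over CD below, are shown with that of *Plin3*, the other perilipin among the members, whose ratio was near 0. The windows run from 250 bases before to 50 bases after a RefSeq transcript start on GRCm38.p6. Capitals mark ACGTG or its other strand CACGT, the core letters read by hypoxia-inducible and E-box factors, and AGGTCA or its other strand TGACCT, the half-site read by PPARs and other nuclear receptors.
*Plin2* (chr4:86670010-86670309, minus strand): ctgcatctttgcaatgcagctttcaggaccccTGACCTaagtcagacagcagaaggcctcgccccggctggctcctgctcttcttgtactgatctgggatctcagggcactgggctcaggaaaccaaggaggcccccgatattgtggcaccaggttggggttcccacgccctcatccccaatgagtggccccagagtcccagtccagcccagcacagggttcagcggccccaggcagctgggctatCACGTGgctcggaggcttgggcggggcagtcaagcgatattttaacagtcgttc
*Hilpda* (chr6:29272376-29272675, plus strand): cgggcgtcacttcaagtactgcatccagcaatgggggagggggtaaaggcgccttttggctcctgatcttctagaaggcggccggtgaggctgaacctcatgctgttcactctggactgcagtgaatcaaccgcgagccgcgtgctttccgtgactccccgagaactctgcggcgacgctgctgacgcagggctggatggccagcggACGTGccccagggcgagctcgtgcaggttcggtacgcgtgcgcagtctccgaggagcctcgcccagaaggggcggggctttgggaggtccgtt
*Plin3* (chr17:56290462-56290761, minus strand): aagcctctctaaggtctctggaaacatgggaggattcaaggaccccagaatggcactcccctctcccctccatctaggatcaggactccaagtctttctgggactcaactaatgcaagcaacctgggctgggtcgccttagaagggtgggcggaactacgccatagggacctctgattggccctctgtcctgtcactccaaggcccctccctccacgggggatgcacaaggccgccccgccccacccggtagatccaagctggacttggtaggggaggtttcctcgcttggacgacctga

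The *Plin2* window holds CACGTG, which reads ACGTG on both strands, and TGACCT. The *Hilpda* window shown holds ACGTG, while the other *Hilpda* window of the RefSeq table, which overlaps this one and starts at base 29272238, does not. The transcript start of that other window is the *Hilpda* gene start given below. The *Plin3* window holds neither set of letters. It lies inside the *Plin3* gene given below, which starts at base 56292873 on the minus strand, while the *Plin2* window spans its gene start. The bases around the *Plin3* gene start were not read. Of 32851 windows of 300 bases, 19.6% hold ACGTG and 16.3% hold AGGTCA on either strand, so both are common and a match is a description of the letters. Of the other members with a window, ACGTG is in both *Mgll* windows and AGGTCA is in the *Abhd5* window. GCGTG was counted on either strand but not marked. It is in both *Hilpda* windows and in the *Plin2* window, not in the *Plin3* window, and in 32.4% of all windows. It is also in both *Mgll* windows, the *Abhd5* and *G0s2* windows and the *Acsl1* window that starts at base 46470787. The *Pnpla2* window and the other *Acsl1* window do not hold it. Windows were found for 8 of the 10 members.

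In the GENCODE vM21 annotation of GRCm38, the build of the files, *Plin2* (ENSMUSG00000028494) lies on chromosome 4 at 86648386 to 86670060 on the minus strand and *Hilpda* (ENSMUSG00000043421) on chromosome 6 at 29272488 to 29275446 on the plus strand. *Plin3* (ENSMUSG00000024197) lies on chromosome 17 at 56277476 to 56292873 on the minus strand. Of the other members, *Mgll* shares chromosome 6 with *Hilpda*, and *Pnpla2* and *Dgat2* share chromosome 7.

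*Plin2* and *Hilpda*, a droplet coat gene and an inhibitor of lipolysis, were higher in the HFD library, *Mgll* and *Dgat2* were lower, and *Plin3*, *Pnpla2*, *Abhd5*, *Acsl1* and *Dgat1* were within 1.5-fold between the libraries. The droplet coat gene *Plin2* had 4299 UMIs, or 350 CPM (340 to 361), in the CD cells and 8340 UMIs, or 1031 CPM (1009 to 1054), in the HFD cells. This is a ratio of 2.95-fold, log2 1.56 (1.51 to 1.61), the 64th highest of 10662 genes. *Hilpda* went with it, at 27.8 CPM (24.9 to 30.9) in CD and 65.3 CPM (59.8 to 71.1) in HFD, which is log2 1.23 (1.03 to 1.43) and the 116th highest. So 2 of 10 members were at least 1.5-fold higher in HFD, where 5.56% of all genes with at least 30 UMIs were and the median log2 ratio of those genes was -0.02. The *Plin2* UMIs were spread over many cells, with 5.09% of them in the 5 cells that held most in CD and 4.24% in HFD, and the *Hilpda* UMIs over fewer, with 20.5% and 15.2% in 5 cells. Adipocytes also hold droplets. When every cell was thinned to 1000 UMIs, the adipocyte markers summed to 148, 270, 157 and 71.4 CPM in CD cells with 0, 1, 2 and 3 or more *Plin2* UMIs. In HFD cells they summed to 98.2, 93.5, 137 and 157 CPM. Before thinning, a split of cells by a *Plin2* UMI also follows depth, as deeper cells more often have one. In that split, cells with a *Plin2* UMI had less of the adipocyte markers than the others, 109 against 156 CPM in CD and 69.6 against 136 CPM in HFD. The stromal markers were at 81.0 against 32.0 CPM in CD and 2.40 against 27.2 CPM in HFD. The part of these markers in the *Plin2* level was not tested. CD cells with a *Hilpda* UMI had more of the stromal markers, 340 against 31.9 CPM, and of the neutrophil markers, 62.6 against 9.05 CPM, than other CD cells, and HFD cells with one did not, with 1.22 against 4.96 CPM and 6.72 against 8.37 CPM. Without any cell that had a UMI of another cell type, the log2 ratio of *Plin2* was 1.52 and that of *Hilpda* 0.98. This filter left out cells with any UMI of the adipocyte, stromal, neutrophil or endothelial markers, so it also depends on depth. It kept 1395 of 2364 CD cells and 1467 of 2021 HFD cells. The adipocyte markers include the droplet genes *Plin1*, *Plin4*, *Cidec* and *Lipe*.

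**Figure D1:**
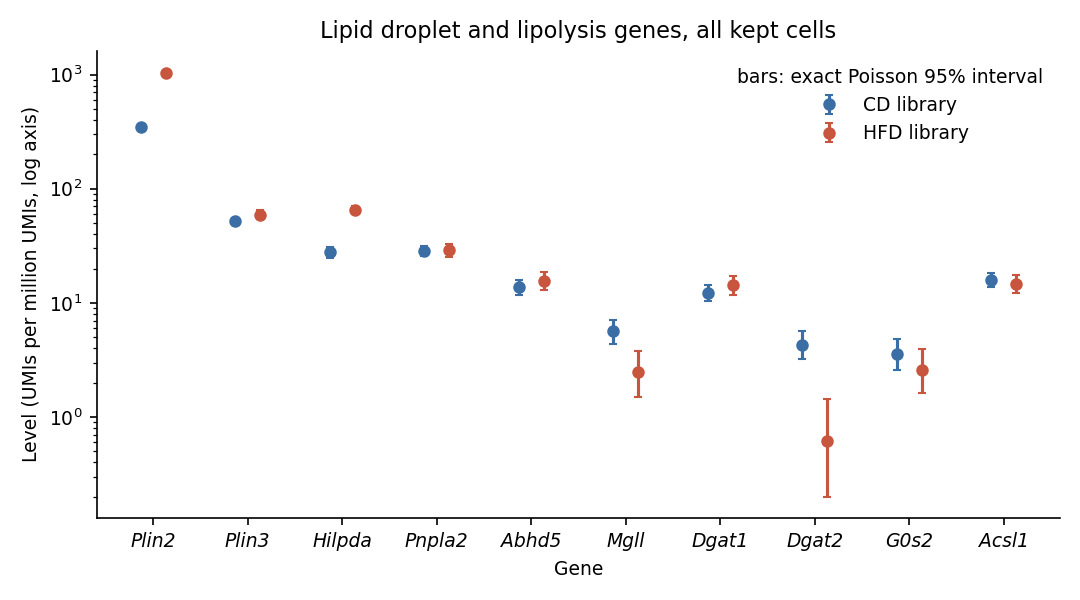
Level of each of the 10 genes over all kept cells, in CPM on a log axis, in the CD library (blue) and the HFD library (red), with exact Poisson 95% intervals as bars. The intervals of *Plin2* and *Hilpda* are apart with HFD higher, those of *Mgll* and *Dgat2* are apart with HFD lower, and those of the other 6 genes overlap.

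*Plin3*, *Pnpla2*, *Abhd5*, *Acsl1* and *Dgat1*, a coat gene, the first lipase with its activator and enzymes of synthesis, did not reach 1.5-fold between the libraries. *Plin3*, a perilipin that moves between cytosol and droplet, was at 51.7 CPM in CD and 59.1 CPM in HFD, log2 0.19 (0.02 to 0.37). *Pnpla2*, the lipase of the first step, was at 28.5 and 28.8 CPM, log2 0.02 (-0.23 to 0.26), so a ratio as large as that of *Hilpda*, which acts on its product, lies outside its interval. Its activator *Abhd5* was at 13.7 and 15.6 CPM, log2 0.19 (-0.16 to 0.53). For synthesis, *Acsl1* was at 15.8 and 14.7 CPM, log2 -0.10 (-0.44 to 0.23), and *Dgat1* was at 12.2 and 14.2 CPM, log2 0.22 (-0.14 to 0.58). The intervals of all 5 ended inside that limit.

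The members with the fewest UMIs were *Dgat2*, *G0s2* and *Mgll*. *Mgll* and *Dgat2* were at least 1.5-fold lower in HFD, 2 of 10 members where 10.7% of all genes were. *Dgat2*, the other acyltransferase of triglyceride synthesis, had 53 UMIs in CD (4.31 CPM) and 5 in HFD (0.62 CPM), log2 -2.80 (-4.48 to -1.49). The 46 CD cells with a *Dgat2* UMI had 698 CPM of the stromal markers and 733 CPM of the adipocyte markers, against 56.0 and 104 CPM in the other CD cells, and without cells that had a UMI of another cell type the log2 ratio of *Dgat2* was -2.0. *Mgll* had 69 UMIs in CD (5.62 CPM) and 20 in HFD (2.47 CPM), log2 -1.18 (-1.98 to -0.45). In CD, 5 cells held 51 of these 69 UMIs, all 5 had UMIs of at least 2 endothelial markers, and without cells of that kind the log2 ratio of *Mgll* was 0.24. *G0s2*, the other inhibitor of *Pnpla2*'s product, had 44 UMIs in CD (3.58 CPM) and 21 in HFD (2.60 CPM), log2 -0.46 (-1.29 to 0.32).

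Shares of cells followed the levels of *Plin2* and *Hilpda*. Since HFD cells were shallower, each cell was thinned to 1000 UMIs at random, which left 2312 CD and 1754 HFD cells and left out 52 and 267 shallower ones. *Plin2* had a UMI in 28.5% (26.6 to 30.3) of thinned CD cells and 58.8% (56.4 to 61.1) of thinned HFD cells, and in 71.2% and 84.4% before thinning. *Hilpda* had a UMI in 1.73% (1.24 to 2.35) of thinned CD cells and 4.39% (3.48 to 5.46) of thinned HFD cells, and in 8.76% and 12.9% before. The thinned shares of *Pnpla2*, at 3.07% (2.41 to 3.86) and 3.19% (2.42 to 4.13), and of *Acsl1*, at 1.73% and 1.77%, overlapped. No cell type free of these genes was sorted, so the share that free RNA gives could not be measured in such a type.

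The higher level of *Plin2* in HFD also showed in the number of UMIs per cell. Cells with 3 or more *Plin2* UMIs among 1000 made up 1.21% (0.81 to 1.75) of CD cells and 14.1% (12.5 to 15.9) of HFD cells, and those with 5 or more made up 0.17% and 2.91%. At this depth 41.2% of HFD cells showed no *Plin2* UMI. A higher mean alone moves these shares the same way, so they describe the level and not a difference in spread.

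**Figure D2:**
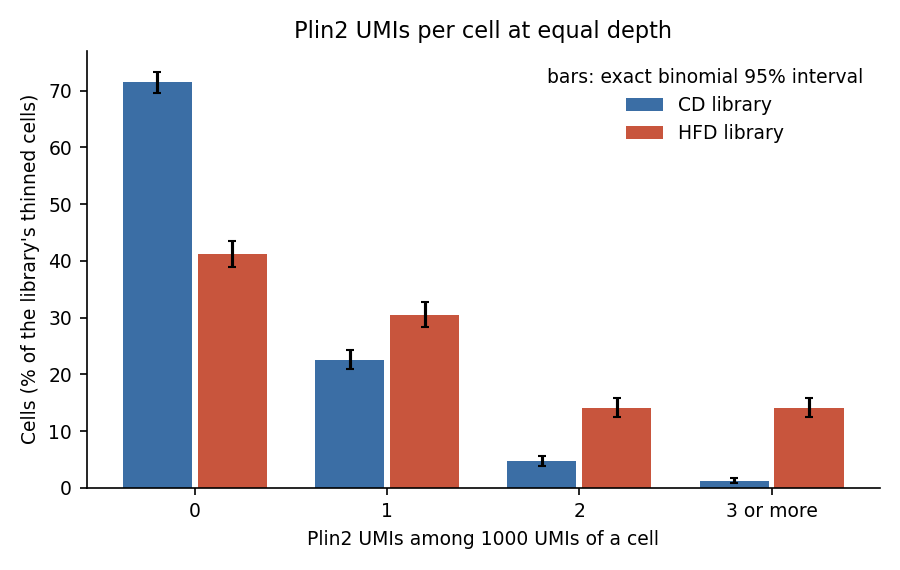
Percent of cells of each library with 0, 1, 2 or 3 or more *Plin2* UMIs after every cell was thinned to 1000 UMIs, with exact binomial 95% intervals. CD cells (blue) are mostly at 0, 71.5% of them, while 14.1% of HFD cells (red) hold 3 or more against 1.21% of CD cells.

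Cells with many *Plin2* UMIs carried other markers than cells with none. In HFD, the 6 lipid-associated macrophage markers (*Trem2*, *Cd9*, *Gpnmb*, *Spp1*, *Lgals3*, *Lpl*) summed to 1985 CPM in the 723 cells with no *Plin2* UMI and to 3810 CPM in the 248 cells with 3 or more. The 5 markers of monocyte-derived ATMs (*Ccr2*, *Lyz1*, *Ear2*, *Retnla*, *Fn1*) went the other way, from 46544 CPM at 0 to 21790 CPM at 3 or more, and resident markers went from 1555 to 2319 CPM. The CD library had the same order for the first list, with 1375 CPM in 1654 cells and 3964 CPM in 28 cells, and for the monocyte-derived list, with 36270 and 24500 CPM. The resident markers did not have the same order in CD, with 3872 CPM (3778 to 3968) and 3786 CPM (3099 to 4579), intervals that overlap. These sums mostly follow a few genes. Over all kept HFD cells, *Lgals3* and *Lpl* gave 16078 and 6918 of the 23690 UMIs of the first list. *Retnla* gave 327907 of the 409055 UMIs of the monocyte-derived list. Cells with more *Plin2* UMIs were shallower before thinning, with medians of 3838 UMIs at 0 and 2699.5 at 3 or more in HFD, and the part of depth in these differences was not tested.

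*Plin2* and *Hilpda* met in the same cells more in HFD than in CD. Among thinned HFD cells, the 77 with a *Hilpda* UMI had a mean of 1.87 *Plin2* UMIs and the cells without had 1.11. Among thinned CD cells, the 40 with a *Hilpda* UMI had a mean of 0.28 *Plin2* UMIs and the cells without had 0.36. Across cells, which share a library and are not replicates, Pearson's r was 0.12 in 1754 HFD cells and 0.0055 in 2312 CD cells, which in counts this sparse is a description only.

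Next, the members were compared across 7 marker classes, in which a cell counts if it has a UMI of the marker. Timd4+ and Lyve1+ cells carry markers of resident ATMs, Folr2+Lyve1- cells carry *Folr2* without *Lyve1*, Ccr2+ cells and cells with at least 10 *Lyz1* UMIs carry markers of monocyte-derived ATMs, Plac8+ cells carry a monocyte gene, and Trem2+ cells carry a lipid receptor of lipid-associated macrophages. The classes overlap: of the cells with at least 10 *Lyz1* UMIs, 95.7% in CD and 89.7% in HFD were also Ccr2+. Of the Trem2+ cells, 60.5% in CD and 19.0% in HFD were also Lyve1+. The classes also depend on depth, and their sizes differed between the libraries. Timd4+ cells numbered 368 in CD and 72 in HFD, Lyve1+ cells 1172 and 415, Folr2+Lyve1- cells 872 and 581, Ccr2+ cells 1326 and 1131, cells with at least 10 *Lyz1* UMIs 555 and 672, Plac8+ cells 42 and 73, and Trem2+ cells 638 and 168.

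*Plin2* was higher in HFD in each of the 7 classes, from 2.72-fold in Ccr2+ cells to 4.58-fold in Trem2+ cells. In Trem2+ cells it was at 438 CPM (417 to 460) in CD and 2008 CPM (1918 to 2101) in HFD, log2 2.20 (2.10 to 2.29). In Lyve1+ cells it was at 352 and 1202 CPM, log2 1.77 (1.68 to 1.87), and in Folr2+Lyve1- cells at 366 and 1207 CPM, log2 1.72 (1.63 to 1.81). Timd4+ cells were at 340 and 1109 CPM, log2 1.71 (1.5 to 1.91), and these cells were 77.7% Lyve1+ in CD and 38.9% Lyve1+ in HFD. Their resident markers summed to 5773 CPM in CD and 3274 CPM in HFD. Their dendritic cell markers summed to 233 and 727 CPM and their monocyte markers to 11.3 and 175 CPM. The part of these differences in their *Plin2* ratio was not tested. Ccr2+ cells were at 318 and 865 CPM, log2 1.44 (1.38 to 1.51), and cells with at least 10 *Lyz1* UMIs at 276 and 771 CPM, log2 1.48 (1.39 to 1.57). Plac8+ cells were at 480 and 1432 CPM, log2 1.58 (1.30 to 1.86), from 131 and 566 UMIs. In CD these cells had 1922 CPM of the stromal and 304 CPM of the adipocyte markers, against 5.06 and 32.9 CPM in HFD. Without cells with a UMI of another cell type their log2 ratio was 1.95, and the part of other cell types in their *Plin2* level was not tested. The order of the class ratios depended on how the classes were drawn. For exclusive classes each cell went to the first class that held it. Their order was Plac8+, Trem2+, at least 10 *Lyz1* UMIs, Timd4+, Lyve1+, Folr2+Lyve1- and Ccr2+. Only exclusive Ccr2+ cells were thus in no other class, though they could hold fewer than 10 *Lyz1* UMIs. They numbered 82 in CD and 209 in HFD. Exclusive Trem2+ cells were still 627 of 638 in CD and 155 of 168 in HFD. With exclusive classes the log2 ratio was 1.92 in Ccr2+, 1.68 in Lyve1+, 1.91 in Folr2+Lyve1- and 2.10 in Trem2+ cells. With classes drawn from thinned UMIs it was 1.21 in Timd4+, 1.81 in Lyve1+, 1.95 in Folr2+Lyve1-, 1.40 in Ccr2+ and 1.89 in Trem2+ cells.

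The log2 ratio of *Plin2* in Trem2+ cells was above that of all other kept cells by 0.66 (0.55 to 0.78), in Lyve1+ cells by 0.26 (0.14 to 0.37) and in Folr2+Lyve1- cells by 0.21 (0.10 to 0.32). In Ccr2+ cells it was below by 0.44, log2 -0.44 (-0.55 to -0.33), and in cells with at least 10 *Lyz1* UMIs log2 -0.31 (-0.42 to -0.20). For Timd4+ cells the difference was 0.16 (-0.05 to 0.37) and for Plac8+ cells 0.04 (-0.24 to 0.32), both within counting error.

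In HFD, the order of *Plin2* levels over summed UMIs was Trem2+, Plac8+, then Folr2+Lyve1-, Lyve1+ and Timd4+, whose intervals overlap, then Ccr2+ and last the cells with at least 10 *Lyz1* UMIs. In CD, Plac8+ and Trem2+ cells were highest with overlapping intervals, Folr2+Lyve1-, Lyve1+ and Timd4+ cells followed with overlapping intervals, the interval of Ccr2+ cells overlapped that of Timd4+ cells, and the cells with at least 10 *Lyz1* UMIs were lowest. As the mean over cells, *Plin2* in the Plac8+ cells of HFD was at log2 -0.03 against the other cells, where over summed UMIs it was at 0.50. The gap between the highest and the lowest class was therefore 480 to 276 CPM in CD and 2008 to 771 CPM in HFD. In CD its top is the Plac8+ class, which held the stromal and adipocyte markers given above.

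Against the kept cells outside the class, *Plin2* in CD was level in Lyve1+ cells, log2 0.01 (-0.07 to 0.10), and in HFD it was higher there, log2 0.27 (0.19 to 0.35). Ccr2+ cells were lower than the other cells in both libraries, log2 -0.42 (-0.51 to -0.33) in CD and -0.86 (-0.92 to -0.79) in HFD. With classes made exclusive, so that a Ccr2+ cell fell in none of the other classes, the HFD value was 0.0033, and *Plin2* in such Ccr2+ cells was at nearly the level of the rest.

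*Hilpda* was also higher in HFD in the classes with enough UMIs. Trem2+ cells were at 31.2 CPM (25.7 to 37.5) in CD and 143 CPM (119 to 169) in HFD, log2 2.19 (1.82 to 2.57). Lyve1+ cells were at 16.8 and 69.0 CPM, log2 2.04 (1.61 to 2.47). Lyve1+ cells were the lowest class in CD, log2 -1.12 (-1.48 to -0.76) against the other cells, and at log2 0.10 (-0.24 to 0.42) against them in HFD. With exclusive classes these values against the other cells were log2 -1.34 in CD and -1.02 in HFD, and the log2 ratio of HFD over CD in Lyve1+ cells was 1.47. With classes drawn from thinned UMIs the log2 ratio of HFD over CD was 1.42 in Trem2+, 1.54 in Lyve1+ and 1.58 in Ccr2+ cells. With the overlapping classes, the class difference in ratio was 1.21 (0.74 to 1.68) for Lyve1+ and 1.12 (0.69 to 1.55) for Trem2+ cells over the cells outside.

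In the remaining classes with at least 30 UMIs *Hilpda* was 1.99-fold to 2.59-fold higher in HFD. The log2 ratio was 1.37 (0.43 to 2.26) in Timd4+ cells, from 37 and 16 UMIs, 1.02 (0.68 to 1.37) in Folr2+Lyve1- cells, 1.03 (0.79 to 1.27) in Ccr2+ cells and 0.99 (0.72 to 1.27) in cells with at least 10 *Lyz1* UMIs. The Timd4+ value did not keep its sign when cells were thinned to 1000 UMIs, at log2 -0.91. Plac8+ cells had 7 and 19 *Hilpda* UMIs, log2 0.91 (-0.41 to 2.40). Cells with at least 10 *Lyz1* UMIs had more *Hilpda* than other cells in CD, log2 0.65 (0.34 to 0.97), where their *Plin2* was lower. In HFD the *Hilpda* value was log2 0.31 (0.05 to 0.57), and -0.07 with exclusive classes.

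**Figure D3:**
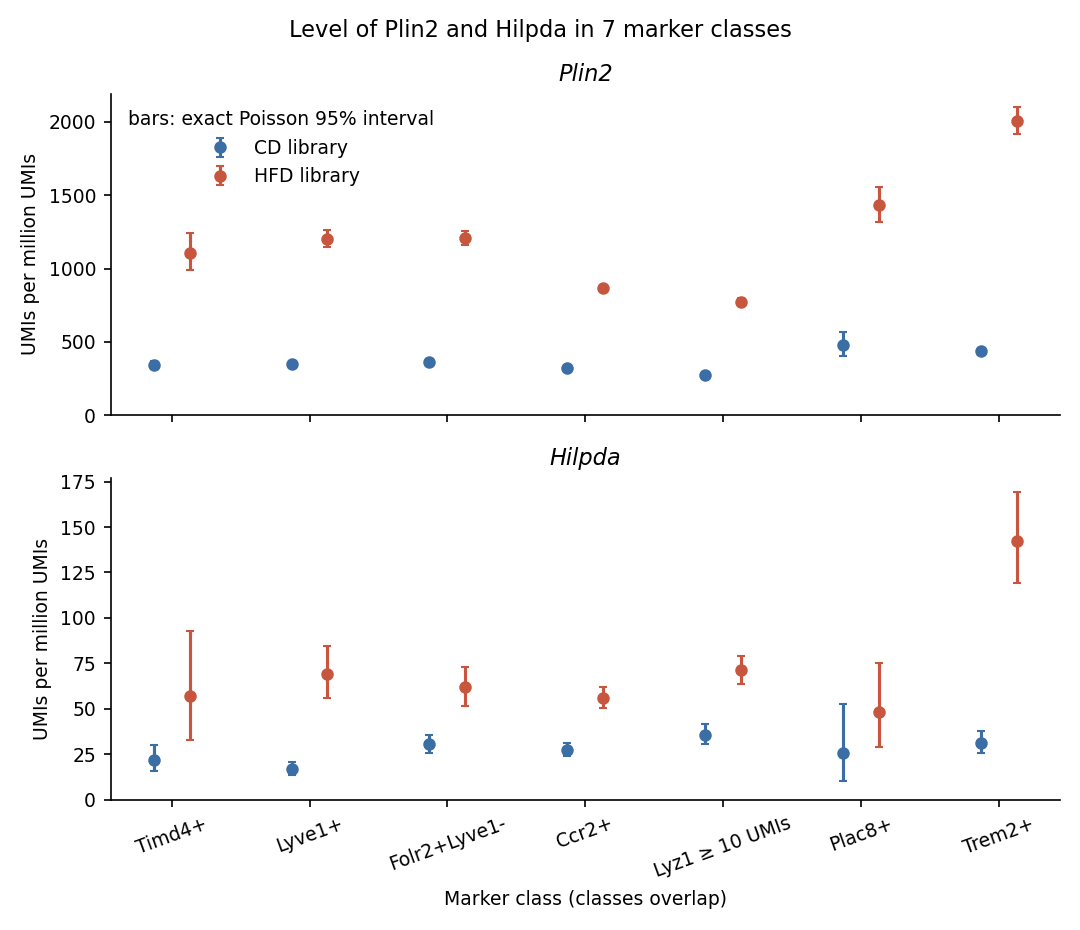
Level of *Plin2* (top) and *Hilpda* (bottom) in CPM in the 7 overlapping marker classes, CD library in blue and HFD library in red, with exact Poisson 95% intervals. HFD lies above CD in every class for both genes, with the intervals apart except for *Hilpda* in Plac8+ cells, and the Trem2+ cells of HFD are highest at 2008 and 143 CPM.

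The Trem2+ cells of the libraries were not alike in other markers. Their lipid-associated markers summed to 1797 CPM in CD and 5902 CPM in HFD, their resident markers to 3983 and 997 CPM, and their median depth was 4988.5 and 5190 UMIs. Over all kept cells the lipid-associated list summed to 1785 CPM in CD and 2930 CPM in HFD. In CD the Trem2+ cells were thus at nearly the level of all cells for this list. Over all kept cells most of its UMIs came from *Lgals3* and *Lpl*, and its genes were not read apart within the Trem2+ cells. *Trem2* itself was at 84.3 CPM over all kept CD cells and 41.3 CPM over all kept HFD cells. In the 48 CD and 32 HFD cells with UMIs of both *Trem2* and *Cd9*, a pair chosen after the data had been seen, *Plin2* was at 914 and 2499 CPM, log2 1.45 (1.26 to 1.64), and *Hilpda* at 144 and 292 CPM, log2 1.02 (0.49 to 1.55). Both genes were thus higher in these CD cells than in the Trem2+ cells of CD, and the ratio in them was smaller than in Trem2+ cells at large. How far the change in the Trem2+ markers goes with the *Plin2* ratio was not tested.

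Members called at least 1.5-fold higher in a class were read against the share of all genes of that class. In Timd4+ cells 2 of the 5 members with at least 30 UMIs were higher, where 10.5% of genes were. Lyve1+ cells had 3 of 7 members higher where 8.46% of genes were, and Folr2+Lyve1- cells 2 of 7 where 8.46% were. Ccr2+ cells had 2 of 9 where 4.8% were, and cells with at least 10 *Lyz1* UMIs 3 of 7 where 6.08% were. Plac8+ cells had 1 of 2 where 11.2% of genes were, and Trem2+ cells 2 of 8 where 10.1% were. In each class *Plin2* was among them, with *Hilpda* in all but the Plac8+ cells, and the added member in Lyve1+ cells and in cells with at least 10 *Lyz1* UMIs was *Dgat1*. Lower in HFD were *Mgll* in Ccr2+ cells, with 41 and 7 UMIs, log2 -2.06 (-3.46 to -0.89), and in Trem2+ cells, with 29 and 1 UMIs, log2 -2.89 (-8.24 to -0.30). *Dgat2* was lower in Ccr2+ cells, with 35 and 4 UMIs, log2 -2.64 (-4.59 to -1.15). The lower members were thus 2 of 9 in Ccr2+ cells and 1 of 8 in Trem2+ cells. The share of all genes that were lower was not counted by class, and over all kept cells it was 10.7%. The *Mgll* value in Ccr2+ cells turned to log2 0.49 with classes drawn from thinned UMIs. The *Mgll* value in Trem2+ cells was log2 -0.36 without cells with 2 endothelial markers, which left 635 of the 638 Trem2+ cells of CD.

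*Dgat1* was at 12.7 CPM in CD and 22.5 CPM in HFD in Lyve1+ cells, log2 0.83 (0.17 to 1.46), from 68 and 31 UMIs, and with classes drawn from thinned UMIs at log2 0.39, under 1.5-fold. In cells with at least 10 *Lyz1* UMIs it was at 7.56 and 12.6 CPM, log2 0.74 (0.11 to 1.38). Against the cells outside, the log2 ratio was higher by 0.75 (-0.0017 to 1.51) in Lyve1+ cells and by 0.63 (-0.12 to 1.39) in cells with at least 10 *Lyz1* UMIs, both within counting error. In CD, cells with at least 10 *Lyz1* UMIs had less *Dgat1* than other cells, log2 -1.0 (-1.59 to -0.45), and in HFD the difference was log2 -0.37 (-0.92 to 0.18).

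*Plin3* and *Acsl1* differed by more between classes than between diets. *Plin3* was higher in cells with at least 10 *Lyz1* UMIs than in other cells, log2 0.54 (0.31 to 0.77) in CD and 0.69 (0.41 to 0.98) in HFD, and in Ccr2+ cells, log2 0.42 and 0.52, while Lyve1+ cells were lower in CD, log2 -0.58 (-0.82 to -0.34). In Ccr2+ cells and cells with at least 10 *Lyz1* UMIs this is opposite to *Plin2*, the other perilipin. Between the diets, *Plin3* in Folr2+Lyve1- cells was at log2 -0.13 and in the other cells at 0.35, a difference of -0.48 (-0.86 to -0.10). *Acsl1* was lower in Ccr2+ cells, log2 -0.83 (-1.25 to -0.40) in CD and -0.82 (-1.38 to -0.24) in HFD, and in cells with at least 10 *Lyz1* UMIs, log2 -0.94 (-1.45 to -0.47) and -1.27 (-1.85 to -0.71). Both classes hold deeper cells, with CD medians of 5928.5 and 8205 UMIs. In CD cells of 200 to under 1000 and 2000 to 3500 genes, *Acsl1* was at 31.0 and 11.8 CPM and *Plin3* at 36.8 and 58.1 CPM. With classes drawn from thinned UMIs, *Plin3* in CD was at log2 0.064 in Ccr2+ cells and 0.54 in cells with at least 10 *Lyz1* UMIs. The part of depth in these class differences was not tested. *Pnpla2* and *Abhd5*, the lipase and its activator, had intervals that held 0 in each class in both libraries, other than *Abhd5* in the Timd4+ cells of HFD, which had 0 of its 126 UMIs and an upper limit of log2 -0.27.

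*G0s2* had its highest level in Plac8+ cells, from few cells. In CD 11 of its 44 UMIs lay in 6 of 42 Plac8+ cells and 33 lay outside the class, and in HFD 12 of its 21 UMIs lay in 3 of 73. These are levels of 40.3 and 30.4 CPM, with log2 3.87 (2.74 to 4.89) over the other cells in CD. The 34 CD cells with a *G0s2* UMI also had 409 CPM of neutrophil and 2529 CPM of stromal markers, against 9.03 and 28.3 CPM in the other CD cells, while in HFD the 12 cells had 44.2 and 0 CPM. The part of these other cell types in the CD level was not tested.

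**Figure D4:**
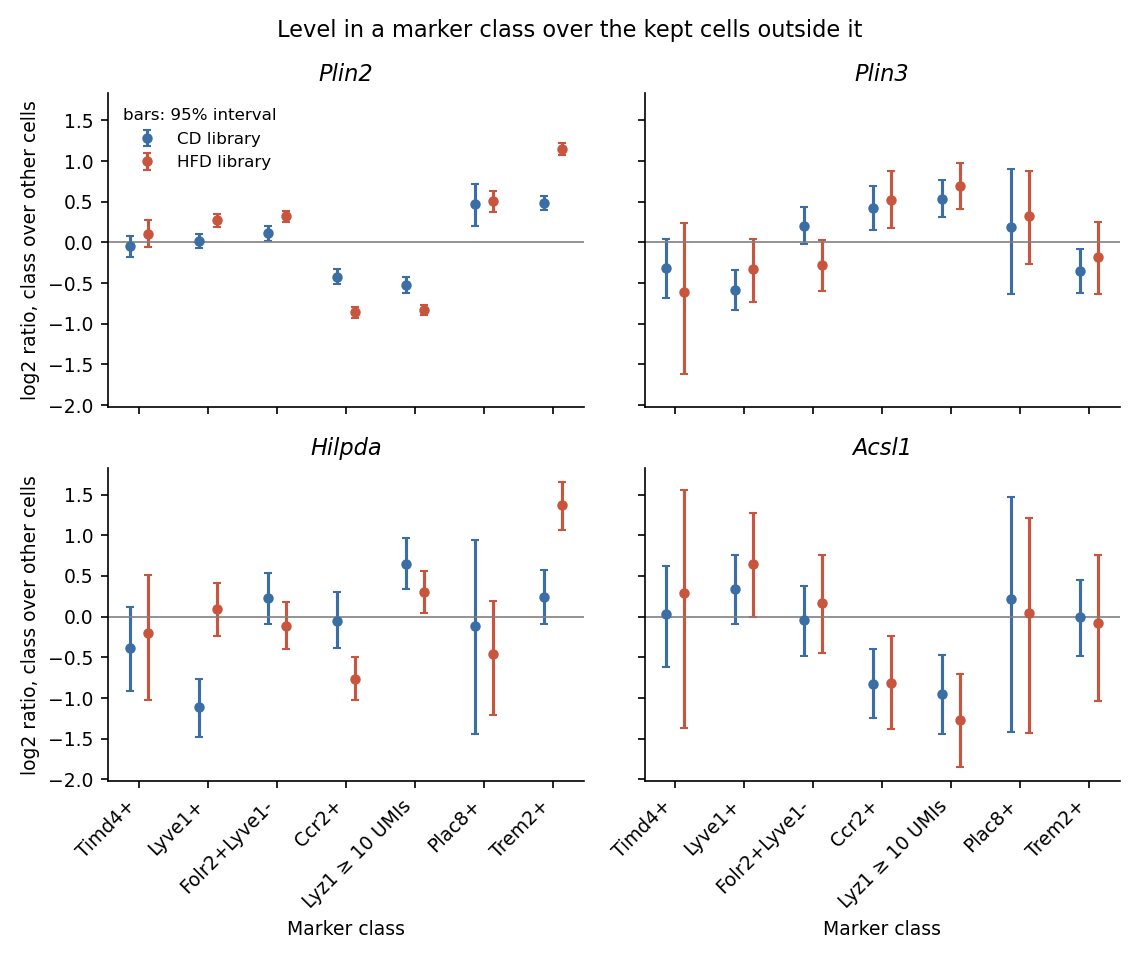
Log2 ratio of the level in a marker class over all kept cells outside it, within the CD library (blue) and the HFD library (red), for *Plin2*, *Plin3*, *Hilpda* and *Acsl1*, with 95% intervals and a line at 0. In Ccr2+ cells and cells with at least 10 *Lyz1* UMIs *Plin2* and *Acsl1* lie below 0 and *Plin3* above 0 in both libraries, and in Trem2+ cells of HFD *Plin2* and *Hilpda* lie at 1.15 and 1.37.

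Depth per cell differed between the libraries, so the ratios were taken again among cells with like numbers of genes. The log2 ratio of *Plin2* was 1.60, 1.56, 1.51 and 1.49 in cells of 200 to under 1000, 1000 to under 1500, 1500 to under 2000 and 2000 to 3500 genes. That of *Hilpda* was 1.42, 1.73, 1.75 and 1.0. Both genes were thus at least 1.5-fold higher in HFD in each bin. With the exclusive classes of both libraries weighted by the share of CD cells in each, *Plin2* was at log2 1.86 and *Hilpda* at log2 1.52. These are above the values over summed UMIs. This also weights classes by cells and not by UMIs, and as the mean over cells *Plin2* was at 1.67. The part of composition alone was not tested.

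**Figure D5:**
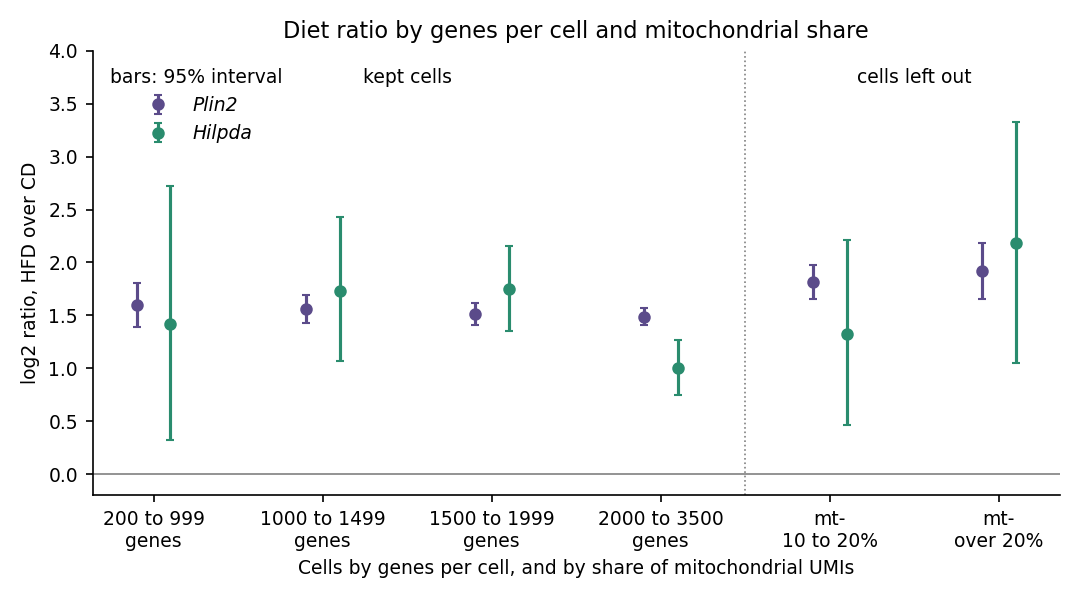
Log2 ratio of HFD over CD of *Plin2* (purple) and *Hilpda* (green) in kept cells by number of genes per cell, left of the dotted line, and in cells left out for their share of mitochondrial UMIs, right of it, with 95% intervals. *Plin2* lies between 1.49 and 1.92 and *Hilpda* between 1.0 and 2.18, all above 0.

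The neighbouring genes of the pathway were read from 5 lists of 60 genes in all, of which 44 had at least 30 UMIs. Of these 44, 6 were at least 1.5-fold higher in HFD and 2 were lower, with a median log2 ratio of 0.05, where 5.56% and 10.7% of all genes were higher and lower and the median was -0.02. The list of coat and assembly genes had 1 of 9 higher (*Fitm2*, 20 and 20 UMIs, log2 0.60, -0.37 to 1.57) and a median of -0.14, below *Plin2* at 1.56. *Cidec*, also 1 of the adipocyte markers, was at log2 -0.40 (-0.97 to 0.15) and *Bscl2*, seipin, at -0.38 (-0.56 to -0.20). Of the adipocyte perilipins, *Plin1* had 10 UMIs in CD and 4 in HFD, and *Plin4* had 6 in each.

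Of the 3 genes listed for cholesteryl ester, the other droplet lipid, 2 had at least 30 UMIs and both were at least 1.5-fold higher in HFD, while *Soat2* had 3 and 1 UMIs. *Soat1*, which esterifies cholesterol, was at 40.4 CPM in CD and 70.9 CPM in HFD, log2 0.81 (0.64 to 0.99). *Nceh1*, which hydrolyses the ester, was at 32.6 and 51.3 CPM, log2 0.65 (0.45 to 0.85). Both were highest in the Trem2+ cells of HFD, at 94.0 and 88.6 CPM, as *Plin2* and *Hilpda* were.

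Of 13 triglyceride synthesis genes, 1 was higher and 1 lower, with a median of 0.31. *Slc27a1*, a fatty acid transport protein, was at 38.7 CPM in CD and 59.4 CPM in HFD, log2 0.62 (0.43 to 0.80), and *Agpat3*, an acyltransferase, at 21.0 and 10.9 CPM, log2 -0.95 (-1.31 to -0.59). The interval of *Agpat3* held 0 within Lyve1+ cells, log2 -0.36 (-0.93 to 0.17), and Folr2+Lyve1- cells, 0.25 (-0.38 to 0.85), and it was lower in HFD within Ccr2+ cells, -1.38 (-2.01 to -0.79).

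Of 8 lipolysis genes, 1 was higher and 1 lower, with a median of 0.02. *Abhd6*, a second monoacylglycerol lipase, had 143 and 30 UMIs, log2 -1.65 (-2.27 to -1.07), and *Pnpla6* had 51 and 60 UMIs, log2 0.84 (0.27 to 1.41). The lysosomal lipase *Lipa*, which also hydrolyses cholesteryl ester, was at log2 -0.09. Hormone-sensitive lipase *Lipe*, also 1 of the adipocyte markers, was at -0.31, and neither was past 1.5-fold. Of 12 genes that take up or burn fatty acids or respond to them, 1 was higher, *Pdk4*, a kinase that limits glucose oxidation and a PPAR target, with 51 and 118 UMIs, log2 1.81 (1.33 to 2.32). The median of that list was -0.04: the uptake receptor *Cd36* was at log2 0.33, *Angptl4* at 0.16 and *Cpt1a* at 0.12. *Pdk4* was higher in HFD in Folr2+Lyve1- cells, log2 2.49 (1.69 to 3.34), in Ccr2+ cells, 1.93 (1.24 to 2.67), and in Lyve1+ cells, 1.64 (0.80 to 2.46).

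Over the 14 class levels (7 classes in 2 libraries), the genes whose level was most like that of *Plin2* among 7094 genes were *C1galt1c1*, *Nop56*, *Ppbp*, *Clec4d* and *Trim25*, with Pearson's r of 0.95, 0.95, 0.94, 0.94 and 0.94 on log2(CPM + 10). Those most like *Hilpda* were *Wbp4*, *Ccl9*, *Pla2g7*, *Ctsd* and *Atp6v1b2*, with 0.96, 0.95, 0.93, 0.93 and 0.92. The levels share cells and libraries, and the likeness is a description. Of these genes *Clec4d*, a C-type lectin receptor, had the highest ratio of HFD over CD, 7.41 CPM against 65.3 CPM, log2 3.14 (2.82 to 3.48).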

How the data were processed

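Droplet-based scRNA-seq of sorted epididymal ATMs was done with the 10x Genomics 3' V2 kit, with 1 library of 3 pooled mice per diet. The authors deposited raw UMI counts for every gene in each barcode. Cell Ranger 3.0.2 had made them on mm10, per the labels, with Ensembl gene models and without normalization, so 3' ends were counted and levels were not compared between genes of different length. Cells with 200 to 3500 genes and at most 10% mitochondrial UMIs were kept, and no caller of doublets was run. Counts were summed over the cells of a library or class and scaled to CPM with pandas 2.3.3, scipy 1.17.1 and numpy 2.4.6 under Python 3.11.15.

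Levels had exact Poisson, shares Clopper-Pearson and ratios exact conditional binomial intervals (95%), and differences of log2 ratios had normal intervals from the summed counting variances. With 1 library per diet no test was made. A gene was called higher or lower at a fold of 1.5 with at least 30 UMIs over both libraries. Named were all 10 members, the listed pathway genes past that fold with an interval apart from 0, at most 12, and the 5 genes most like *Plin2* and *Hilpda* among those with at least 200 UMIs. *Fitm2*, *Cidec*, *Bscl2*, *Plin1*, *Plin4*, *Lipa*, *Lipe*, *Cd36*, *Angptl4* and *Cpt1a* were named after their values had been seen. The members, lists and classes were chosen with earlier results of these data known. Ratio intervals were tested on simulated Poisson counts, the model they assume, with no spread between cells. This checks the calculation and not how well the intervals suit these data. Alternatives changed the cell filters, scaling, depth, class rules and the cells of other types, and 4 were added after the data had been seen: pairing *Trem2* with *Cd9*, and leaving out cells with 2 endothelial markers, with 1% haemoglobin UMIs or with a barcode in both libraries. Promoter windows are those of RefSeq on GRCm38.p6, and positions are from GENCODE vM21 on GRCm38.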

Additional observations from a re-analysis of the deposited data

Results flagged for a closer look

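The barcodes left out for over 10% mitochondrial UMIs, which no comparison above uses, also held more *Plin2* and *Hilpda* in HFD. In the 924 CD and 797 HFD cells with 10 to 20% mitochondrial UMIs, the log2 ratio of HFD over CD was 1.81 (1.66 to 1.97) for *Plin2*, from 377 and 1325 CPM, and 1.33 (0.47 to 2.21) for *Hilpda*, from 21 and 29 UMIs. In the 1119 CD and 323 HFD cells with over 20%, it was 1.92 (1.65 to 2.18) for *Plin2*, from 263 and 994 CPM, and 2.18 (1.05 to 3.33) for *Hilpda*, from 14 and 16 UMIs. In the cells with over 20% *Dgat1* was higher as well, at log2 1.63 (0.51 to 2.72) from 18 and 14 UMIs, while in those with 10 to 20% it was at log2 -0.19 (-1.27 to 0.81). *Plin3* was at log2 0.33 (-0.34 to 0.99) and 0.40 (-0.73 to 1.42) in the same cells, near its value in kept cells.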

How the results depend on the processing

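No paired analysis was possible because each diet has 1 library, and leaving out a replicate was not possible for the same reason. Over all kept cells, *Plin2* stayed at least 1.5-fold higher in HFD under 18 of 18 alternatives (log2 1.49 to 1.86, against 1.56) and *Hilpda* under 18 of 18 (0.98 to 1.75, against 1.23). Some values lay outside the counting interval of the main value. For *Plin2* these were 1.67 as the mean over cells, 1.66 when thinned to 1000 UMIs and 1.86 at the class composition of CD. Cells of 2000 to 3500 genes were at 1.49 (1.41 to 1.57), an interval that held 1.56. For *Hilpda* they were 0.98 without cells with a UMI of other cell types, 1.55 when thinned and 1.52 at the class composition of CD. Cells of 1500 to under 2000 genes were at 1.75. Those of 1000 to under 1500 and 2000 to 3500 genes were at 1.73 (1.07 to 2.43) and 1.0 (0.74 to 1.26), intervals that held 1.23. The number of members at least 1.5-fold lower was 2, but 1 without cells with 2 endothelial markers, 3 at the class composition of CD, where *G0s2* was at log2 -0.81, and 0 when thinned to 1000 UMIs, where fewer than 30 UMIs of *Mgll* (log2 -1.30) and *Dgat2* (13 CD and 0 HFD cells) were left. Without cells with a UMI of other cell types it was 2, with *Mgll* at -0.10 and *G0s2* at -0.68.

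*Mgll* turned to a log2 ratio above 0 without cells with 2 endothelial markers (0.24), as the mean over cells (0.20) and in cells of 200 to under 1000 (0.55) and 1000 to under 1500 genes (0.025), and in Ccr2+ cells with classes from thinned UMIs (0.49). *Hilpda* in Timd4+ cells turned to -0.91 when thinned. Against other cells in CD, *Mgll* turned to 1.54 in Lyve1+ and 2.09 in Ccr2+ cells without cells with a UMI of other cell types, and with exclusive classes to 0.31 in Folr2+Lyve1- and 3.55 in Ccr2+ cells, while *G0s2* turned to 0.21 and 2.67 there. In HFD, *Plin2* in exclusive Ccr2+ cells was at 0.0033. The causes were not tested. Of all genes, 593 were higher and 1136 lower (34.3% higher), against 1022 and 984 (50.9%) as the mean over cells and 686 and 671 (50.6%) when thinned. In the 7 classes, 631 of 678 alternative values stayed within the interval of the main value, 45 moved out of it and 2 reversed. For class against other cells 420 of 489 did, 62 moved and 7 reversed. Shares of cells depend on depth: 35 of 40 moved with another or no thinning. Members with fewer than 30 UMIs in a class could show only large differences.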
